A study of Mus musculus with 18 samples.

Results

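Nodal, activin and bone morphogenetic protein (BMP) signals were followed through 10 genes chosen by name, *Nodal*, *Lefty1*, *Lefty2*, *Tdgf1*, *Fst*, *Inhba*, *Bmp2*, *Bmp4*, *Id1* and *Id3*. All 10 were present among the 20066 genes of the table of blood cell stages and among the 20495 gene rows of the table of fibroblasts, each with 1 transcription start site (TSS). RNA-seq was carried out on 18 samples of strain 129 mouse cells. Of these, 10 came from an embryonic stem cell (ESC) line that carries a GFP reporter in the brachyury gene and was grown on mouse embryonic fibroblasts, with 2 replicates per stage. The 5 stages were ESC, mesoderm (MES, Bry.GFP+, FLK1-), hemangioblast (HB, Bry.GFP+, FLK1+), hematopoietic progenitors (HP, CD41+) and macrophages (MAC, CD11b+), and all but ESC were sorted on these markers. The other 8 were single libraries of embryonic day 14.5 mouse embryonic fibroblasts (MEFs) at day 12 and day 21, either untreated (uFIB) or given the transcription factors Scl and Lmo2 (SL), Scl, Fli1, Gata2 and Lmo2 (SFGL) or Fli1, Gata2 and Lmo2 (FGL). Scl is the product of *Tal1*. The MEFs were wild type or from iTal1-2A-GFP mice, in which doxycycline turns on a TAL1 transgene, and the labels do not say which of these gave each library.

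Nodal and the activins are ligands of the TGF-β family that act through activin receptors, SMAD2 and SMAD3, whereas BMPs act through SMAD1 and SMAD5. Nodal needs the coreceptor Cripto, the product of *Tdgf1*, and is held in check by the Lefty proteins, which Nodal signalling itself induces. Activin A is a dimer of the subunit encoded by *Inhba*, and follistatin (*Fst*) binds and blocks it. BMP signalling turns on the *Id* genes, whose products block the DNA binding of basic helix-loop-helix factors. In the early embryo and in differentiating ESCs these ligands pattern the primitive streak and the mesoderm from which blood arises.

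The levels below are FPKM (fragments per kilobase of transcript, scaled to the number of aligned reads) and can be compared within a table only. The table of stages holds 1 value per stage with both replicates combined, so that no spread and no test can be given between stages. Hemogenic endothelium (HE), which the study places between HB and HP, was not analysed here, so that HB to HP skips a stage and statements on peaks and on order hold for the 5 stages used. A member was counted as changed between stages when log2(FPKM + 1) differed by at least 1, or 2-fold. Markers were summed in FPKM by list. The sum of 5 pluripotency genes was 638 in ESC, and still 285 in MES and 61.5 in HB. That of 4 primitive streak genes was 277 in MES and 215 in HB. Of 5 hemangioblast and endothelium genes, *Kdr* (77.6) and *Etv2* (46.7) were highest in HB, whereas *Cdh5*, *Pecam1* and *Tek* were higher in HP. The sum of 5 blood progenitor genes was 5320 in HP, of which *Hbb-bh1* gave 5182. That of 5 macrophage genes was 2020 in MAC. The 5 endoderm markers were each under 1 FPKM from ESC to HP. Of the 4 fibroblast markers in that table, 3 reached 1 FPKM in HP, where their sum was 36.7 against 1.04 to 5.45 in the other stages, and their part in the levels of the members in HP was not tested. The FPKM of all genes summed to 381686 in MAC and to between 180554 and 201844 in the other stages. In the fibroblasts the library labelled FGL at day 12 held *Tal1* at 7.04 FPKM, a factor its label does not name. That at day 21 held *Fli1* at 3.35 FPKM against 3.02 in uFIB, so that results are given with and without both libraries labelled FGL. *Lmo2* was at 36.2 and 66.5 FPKM in them on days 12 and 21, against 0.499 and 2.28 in uFIB. *Gata2* was at 21.9 and 35.1 against 1.80 and 2.13. The SL libraries, whose label names neither *Fli1* nor *Gata2*, held *Fli1* at 46.7 and 34.4 FPKM, with 41.2 and 27.8 in SFGL. They held *Gata2* at 68.8 and 62.6 FPKM, with 110 and 132 in SFGL. Relative depth, estimated from the steps of low values, ran from 0.587 to 1.56 times that of uFIB at day 12.

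Genes of the Nodal branch were high in ESC and MES and close to 0 in HP and MAC. *Nodal*, the ligand (chr10:61417972-61425337, GRCm38), stood at 28.0 FPKM in ESC and 35.9 in MES, dropped to 6.76 FPKM in HB and to 0.297 in HP, and was listed at 0 in MAC. It was thus about level between ESC and MES, 5.31-fold lower in HB than in MES and 22.8-fold lower again in HP. *Tdgf1*, the coreceptor gene (chr9:110939608-110946158), kept a high level for longer, with 100.4, 92.2 and 64.6 FPKM from ESC through HB, before 0.138 FPKM in HP and 0 in MAC. At 468-fold, its fall from HB to HP was the steepest between consecutive stages used of any member with a value above 0 in both. This fold rests on 0.138 FPKM in HP, near 0, and the difference in log2(FPKM + 1) was -5.85.

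The Lefty genes lie on chromosome 1 close to each other, *Lefty2* at chr1:180893119-180899102 and *Lefty1* at chr1:180935039-180938401. *Lefty1* had 9.74 FPKM in ESC, a peak of 41.1 in MES and 2.00 FPKM in HB, followed by 0.155 in HP and 0.387 in MAC. *Lefty2* likewise went from 10.7 FPKM (ESC) to 40.9 (MES), but was still at 12.3 FPKM in HB, with 0.0656 in HP and 0 listed in MAC. Both stood at nearly the same level in ESC and in MES, with a rise of 4.22-fold and 3.82-fold in between, and they parted in HB, where *Lefty2* was 6.14-fold above *Lefty1*. From MES to HB the difference was -3.81 on the log2 scale for *Lefty1* and -1.66 for *Lefty2*. The levels of both are less certain, since the authors kept unique alignments only and reads from shared stretches may be lost. Of the 50-base windows, 17.9% of *Lefty1* transcripts and 11.6% of *Lefty2* transcripts occurred in transcripts of another gene, each including the other Lefty gene. Of the windows of *Tdgf1*, 12.5% were shared with the pseudogene *Tdgf1-ps1*, and those of *Nodal* were shared with none.

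Promoters are shown for the ligand and its coreceptor because these 2 genes parted between MES and HB. They were searched for AATNNACA, where N is any base. It is a loose pattern for FOXH1, a factor that SMAD2 and SMAD3 use. Each sequence holds the 250 bases before the start site in RefSeq (GRCm38.p6), 5′ to 3′ along the gene, with matches to that loose pattern in capitals.
Nodal promoter, chr10:61417722-61417971, plus strand: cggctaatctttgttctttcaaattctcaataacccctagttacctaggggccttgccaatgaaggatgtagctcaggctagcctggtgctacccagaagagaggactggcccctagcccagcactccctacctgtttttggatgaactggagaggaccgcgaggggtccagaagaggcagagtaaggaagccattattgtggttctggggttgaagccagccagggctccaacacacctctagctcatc
Tdgf1 promoter, chr9:110946159-110946408, minus strand: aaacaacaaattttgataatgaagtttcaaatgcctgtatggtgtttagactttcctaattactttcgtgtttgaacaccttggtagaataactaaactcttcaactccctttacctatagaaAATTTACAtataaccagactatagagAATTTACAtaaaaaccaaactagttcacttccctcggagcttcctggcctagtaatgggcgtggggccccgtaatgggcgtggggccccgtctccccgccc
The *Tdgf1* window held 2 matches, which begin 127 and 101 bases before the start site, and the *Nodal* window held none on either strand. Both matches read AATTTACA. Stricter forms of the FOXH1 sequence were not searched, and whether FOXH1 binds either match was not tested. The matches are therefore not taken as FOXH1 sites, and the 2 windows are not read as differing in FOXH1 binding. Of 32851 RefSeq mouse promoters of the same length, 10.9% held at least 1 match, so that a match in a given window is common. Neither window held the palindromic SMAD sequence GTCTAGAC, found in 0.167% of promoters, the GC-rich SMAD sequence GGCGCC, found in 9.59%, or TATAAA, found in 12.4%. Only these letters were searched, and distal enhancers were not.

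In the activin pair, the inhibitor gene was expressed, while the gene of the ligand subunit stayed under 1 FPKM. *Fst* (chr13:114452262-114458730) was at 4.79 FPKM before differentiation in ESC, at 111 FPKM in MES and at 17.1 in HB, and then at 0.106 in HP and 0.0133 in MAC. It rose 23.2-fold from ESC to MES, the largest rise between consecutive stages used among members that reached 1 FPKM, and was then the highest member in MES. *Inhba* (chr13:16014475-16027211) never reached 1 FPKM, with 0.274 FPKM in ESC, a listed 0 in MES, 0.00619 FPKM in HB, then 0.312 in HP and 0.420 in MAC. The gene as annotated in GENCODE runs from 16011851 to 16031621, beyond the deposited locus at both ends. Whether this lowers its FPKM was not tested. Annotated genes on the opposite strand overlap *Fst* (1 gene), *Inhba* (2) and *Bmp4* (2), and whether the authors' counting used strand is not given in the sources used here.

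Among the 5 stages used, BMP ligands peaked 1 stage later than *Nodal* and the Lefty genes, in HB. *Bmp4* (chr14:46383520-46390599), the ligand that drives ventral mesoderm and blood formation, increased from 4.93 FPKM in ESC through 10.9 in MES to 39.4 FPKM in HB, and then decreased to 8.59 in HP and 0.0884 in MAC. *Bmp2* (chr2:133553199-133562885) took the same course at lower levels, 1.16 FPKM in ESC and 1.81 in MES, then 10.9 FPKM in HB, 5.70 in HP and 0.336 in MAC. *Bmp4* lay above *Bmp2* by 3.61- to 6.01-fold from ESC to HB, by 1.51-fold in HP, and below it in MAC, where both were under 1 FPKM. Between MES and HB *Bmp2* increased 6.03-fold and *Bmp4* 3.63-fold, while *Nodal*, both Lefty genes and *Fst* decreased.

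Of the *Id* genes, targets of BMP signalling, *Id1* stayed expressed after the ligands were down. *Id1* (chr2:152736274-152737410) was lower at each of the stages used than at the one before, from 110.2 and 103 FPKM in ESC and MES to 76.3 FPKM in HB, 17.1 in HP and 7.74 in MAC, and was the only member above 1 FPKM in MAC. *Id3* (chr4:136143822-136145392) had 30.4 and 50.5 FPKM in ESC and MES, 111 FPKM in HB, 8.70 in HP and 0.836 in MAC. *Id3* thus peaked in HB with the BMP ligands, where it was the highest member and 1.45-fold above *Id1*, whereas *Id1* was highest in ESC and was 3.62-fold above *Id3* there. The promoters of *Bmp4* and *Id3*, which both peaked in HB, are shown for the same distance before their RefSeq starts, which for *Bmp4* lies just outside the deposited locus.
Bmp4 promoter, chr14:46390670-46390919, minus strand: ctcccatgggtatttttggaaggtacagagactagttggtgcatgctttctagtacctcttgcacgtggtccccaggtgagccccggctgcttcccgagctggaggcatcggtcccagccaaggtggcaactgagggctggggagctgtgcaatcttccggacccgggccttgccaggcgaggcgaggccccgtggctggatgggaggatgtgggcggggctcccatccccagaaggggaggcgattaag
Id3 promoter, chr4:136143572-136143821, plus strand: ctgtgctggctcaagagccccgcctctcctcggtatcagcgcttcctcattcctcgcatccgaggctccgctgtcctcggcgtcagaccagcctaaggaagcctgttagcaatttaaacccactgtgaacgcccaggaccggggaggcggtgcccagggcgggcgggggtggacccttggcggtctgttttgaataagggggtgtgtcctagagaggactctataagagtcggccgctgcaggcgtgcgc
Neither contained a match to any of the 4 motifs, so no base is capitalized. GC content was 63.2% for *Bmp4* and 62.8% for *Id3*, above the median of 52.4% over all promoters, while *Tdgf1* had 42.0%. The *Id3* window held 18 CpG dinucleotides and that of *Bmp4* held 11, against a median of 6, with 7 for *Tdgf1* and 3 for *Nodal*. RefSeq promoters were matched for 5 of the 10 members, the fifth being *Inhba*.

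**Figure D1:**
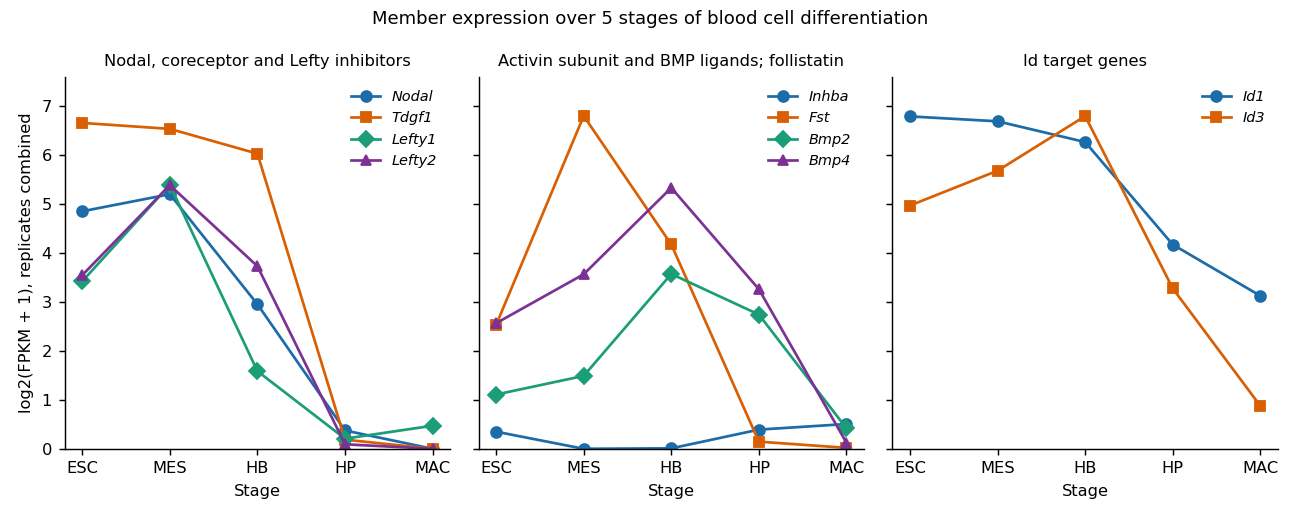
Each point is log2(FPKM + 1) of 1 gene at 1 stage, with both replicates combined and no error to show, and lines join the stages. The Nodal genes and *Fst* are highest in ESC or MES, *Bmp2*, *Bmp4* and *Id3* are highest in HB, and *Inhba* stays near 0.

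At each transition the members were counted against all genes that reached 1 FPKM in either stage. From ESC to MES, 4 members were at least 2-fold higher and 0 lower, against 6.94% and 7.3% of 10606 genes. The 4 were *Fst*, *Lefty1*, *Lefty2* and *Bmp4*, the last 2.21-fold higher in FPKM and only just past the limit on the log2(FPKM + 1) scale, with 0.99 and so below it relative to the median shift of all genes given further on. Short of it were *Id3* at 0.71 and *Bmp2* at 0.38. From MES to HB, 3 members were higher (*Bmp2*, *Bmp4*, *Id3*) and 4 lower (*Nodal*, *Lefty1*, *Lefty2*, *Fst*), against 2.53% and 3.3% of 10211 genes. At this transition the ligand genes of the Nodal and BMP branches went opposite ways. The difference of *Id3* there, 1.12, was 0.96 after scaling the stages to a common upper quartile, below the limit.

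From HB to HP, 0 members were higher and 8 were lower, against 8.86% and 8.8% of 10505 genes. *Lefty2* was 187-fold lower, *Fst* 161-fold, *Id3* 12.7-fold, *Bmp4* 4.59-fold and *Id1* 4.47-fold. The folds of *Lefty2* and *Fst* rest on 0.0656 and 0.106 FPKM in HP, near 0 and with an unknown counting error, so the folds do not rank the falls. On the log2(FPKM + 1) scale *Lefty2* was at -3.64, *Fst* at -4.03 and *Id3* at -3.52. *Bmp2*, at -0.83 on the log2 scale, did not reach the limit, and *Inhba* was under 1 FPKM in both stages. From HP to MAC, 4 members were lower and 0 higher, against 13.9% and 33.4% of 10819 genes. These were all 4 members that still reached 1 FPKM, namely *Bmp4* (97.3-fold, from a value of 0.0884 FPKM in MAC), *Bmp2* (17.0-fold), *Id3* (10.4-fold) and *Id1* (2.21-fold). A gene that reached 1 FPKM in the earlier stage only could not count as higher. This held for *Bmp4*, *Bmp2* and *Id3* here, and for *Nodal*, *Lefty1*, *Lefty2*, *Tdgf1* and *Fst* from HB to HP. All genes were counted in the same way, and the counts are a description only.

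The median log2 difference of the 10 members was 0.55, -0.47, -2.34 and -0.28 over the 4 transitions in order, against 0.00, 0.13, -0.13 and 0.45 for the genes tested. The members' medians hold all 10, also those under 1 FPKM in both stages, whereas the genes tested reached 1 FPKM. From HP to MAC only 4 members reached it, with differences from -1.05 (*Id1*) to -3.14 (*Bmp4*). Over 10815 genes whose mean reached 1 FPKM, the median was shifted by 0.01, 0.11, -0.12 and 0.36 as deposited, and by 0.01, -0.01, -0.06 and -0.21 after upper quartile scaling. Relative to the shift from HP to MAC, *Id1* was at -1.40 and *Bmp4* at -3.50. Among the differences counted as changes, none turned its direction under either scaling. *Lefty1* and *Inhba*, both under 1 FPKM, were 0.26 and 0.11 higher in MAC than in HP as deposited but -0.09 and -0.24 relative to the shift.

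**Figure D2:**
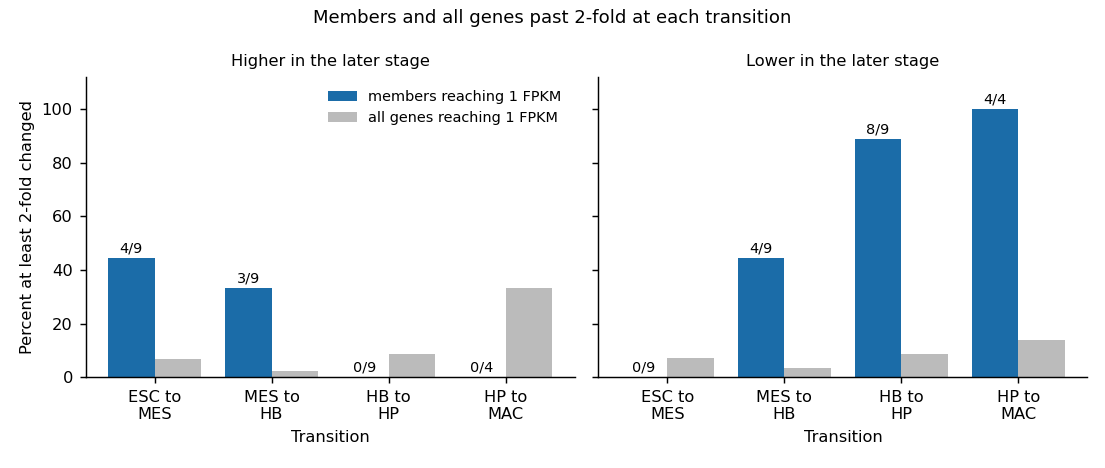
Bars give the percent of genes at least 2-fold higher (left) or lower (right) in the later stage at 4 transitions, for the members that reached 1 FPKM (blue, with counts above) and for all genes that did (grey). Members changed in both directions from MES to HB, and all that changed from HB to HP and from HP to MAC were lower. Genes that reached 1 FPKM in the earlier stage only could not count as higher.

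The genes whose profiles over the 5 stages lay nearest to a member were found by Euclidean distance on centred log2(FPKM + 1) among 7271 genes whose mean reached 5 FPKM. For *Nodal* they were *F2rl1*, a protease-activated receptor gene, at a distance of 0.27, *Epcam*, an epithelial adhesion gene, at 0.44 and *Epha1*, an ephrin receptor gene, at 0.86. For *Bmp4* they were *Ptpn13* at 0.57, *Has2*, which makes hyaluronan, at 0.64 and *Tspan6* at 0.91. For *Id1* they were *Echdc2* at 0.35, *Cited1* at 0.42 and *Bok* at 0.45. Nearness over 5 values is a description of shape alone.

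The rest of the pathway was followed with 63 genes listed by role, of which 61 were in the table of stages. From ESC to MES, 13 were at least 2-fold higher and 4 lower, from MES to HB 5 and 2, from HB to HP 3 and 21, and from HP to MAC 11 and 11, of 42, 42, 43 and 37 genes that reached 1 FPKM. As shares, 31.0%, 11.9%, 6.98% and 29.7% were higher, where all genes gave 6.94%, 2.53%, 8.86% and 33.4%. Lower were 9.52%, 4.76%, 48.8% and 29.7%, where all genes gave 7.3%, 3.3%, 8.8% and 13.9%. Over all 61 genes, also those under 1 FPKM, the median log2 differences were 0.27, 0.13, -0.31 and -0.03. From HB to HP, 6 of 7 target genes, 6 of 12 inhibitors and 4 of 9 receptors that reached 1 FPKM were lower.

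Genes named for having the widest range in each role followed differing courses. *Smad1*, which carries the BMP signal, ran from 8.33 FPKM in ESC through 24.3 in MES to 46.4 FPKM in HB, and was at 5.85 in HP and 6.60 in MAC. *Foxh1*, the nuclear partner of Nodal signalling, had 33.1, 51.8, 83.1 and 16.6 FPKM from ESC to HP and was listed at 0 in MAC, so that it peaked in HB, where *Nodal* was lower than in MES. *Smad3* stayed between 4.30 and 6.52 FPKM until HP and was at 1.13 in MAC.

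The targets *Msx1* and *Msx2*, homeobox genes known to respond to BMPs, peaked in HB at 36.6 and 30.7 FPKM, as did 2 inhibitors of BMP signalling, *Smad6* at 31.0 and *Bmper* at 11.1 FPKM. *Smad6*, an intracellular inhibitor, had 1.29 FPKM in ESC, 9.73 in MES, 11.9 in HP and 0.142 in MAC. *Bmper*, a secreted BMP-binding protein, had 0.226 in ESC, 3.55 in MES, 0.292 in HP and 0.0175 in MAC. Within the list a peak in HB was not limited to BMP-linked genes, as *Foxh1* had it too. Of 47 listed genes that reached 1 FPKM at any stage, 21 were highest in HB, 14 in MAC, 5 in ESC, 4 in MES and 3 in HP. The share of all genes that peak in each stage was not counted, so these counts cannot be set against genes at large. The peaks are of FPKM as deposited, with the shift of genes in MAC left in.

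Other ligands of the wider family stood on either side of the members. *Gdf3*, a ligand of pluripotent cells, was at 19.9 FPKM in ESC, 4.27 FPKM in MES and 0.681 FPKM in HB. *Tgfb1* was higher at each of the stages used than at the one before, from 2.28 in ESC through 8.55, 10.6 and 26.5 to 63.8 FPKM in MAC. Its receptors were high there as well, *Tgfbr2* at 113 FPKM in MAC against 1.41 to 6.79 before and *Tgfbr1* at 73.9 against 7.03 to 20.2. *Acvrl1*, a receptor of endothelial cells, was at 6.72 FPKM in MAC and under 1 before. *Id2* was at 313 FPKM in MAC and between 3.32 and 27.6 in the earlier stages, so that it parted from *Id1* and *Id3*. *Tgfb2* peaked in HB at 11.6 FPKM, and *Tgif1*, a repressor of SMAD activity, ran from 46.3 FPKM in ESC to 3.88 in HP and 24.1 in MAC. Of the proteases that activate ligands or cleave their antagonists, *Furin* rose from 5.10 FPKM in HP to 12.8 in MAC, *Pcsk6* fell from 5.07 in ESC to 1.43 in MES and *Bmp1* was at 0.233 in MAC against 3.78 in HP. These levels are as deposited. From HP to MAC *Furin* differed by 1.18 and *Tgfb1* by 1.24 on the log2 scale, where the median shift of genes was 0.36. Relative to that shift both were below the limit of 1.

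**Figure D3:**
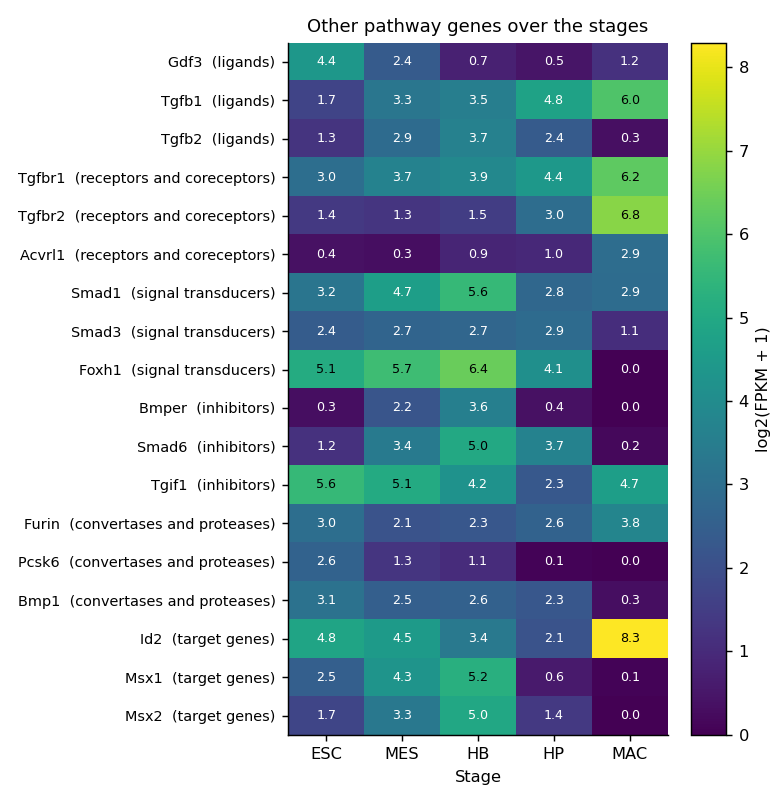
Each cell gives log2(FPKM + 1) of 1 pathway gene (rows, with its role) at 1 stage (columns), replicates combined, with the colour scale starting at 0. *Smad1*, *Foxh1*, *Bmper*, *Smad6*, *Msx1* and *Msx2* are highest in HB, while *Tgfb1*, *Tgfbr1*, *Tgfbr2* and *Id2* are highest in MAC.

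In the fibroblasts the question was how the members responded to factors that turn these cells towards blood. *Fst*, *Bmp4* and *Id3* were lower in all 4 SL and SFGL libraries than in all uFIB libraries, and *Id1* was higher. How many of all genes separate these libraries in the same way was not counted. The ligand and the coreceptor of the Nodal branch were at or near 0, since *Tdgf1* was listed at 0 in all 8 libraries and *Nodal* was above 0 only in those labelled FGL, at 0.0259 FPKM on day 12 and 0.0492 on day 21. *Lefty2* was at or below 0.124 FPKM in every library, and *Lefty1* reached 1 FPKM in 2, SFGL and the one labelled FGL on day 21. Of the 10 members, 5 (*Inhba*, *Fst*, *Bmp4*, *Id1*, *Id3*) had a mean of at least 1 FPKM and were tested with limma, in a contrast where 61.8% of all 11991 genes passed.

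*Fst* was at 36.0 FPKM in uFIB on day 12 and 45.2 on day 21, at 7.66 and 11.3 in SL and at 5.07 and 10.7 in SFGL on the same days. *Bmp4* was at 45.4 and 53.7 FPKM in uFIB, 8.88 and 21.7 in SL and 7.21 and 10.5 in SFGL. The libraries labelled FGL lay with the untreated ones, at 33.6 and 43.2 FPKM for *Fst* and 39.3 and 64.7 for *Bmp4*. By limma on log2(FPKM + 1) over all 8 libraries, with terms for treatment and day, SL and SFGL against uFIB gave a log2 difference of -2.15 (95% interval -2.52 to -1.77, adjusted p = 0.000406) for *Fst*. For *Bmp4* the same limma contrast gave -2.06 (-2.56 to -1.56, adjusted p = 0.000735).

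The 2 *Id* genes moved in opposite directions. *Id1* was at 25.9 and 30.4 FPKM in uFIB on days 12 and 21, at 76.5 and 66.0 in SL, at 80.8 and 62.3 in SFGL and at 27.2 and 25.2 in the libraries labelled FGL. *Id3* was at 97.2 and 86.6 FPKM in uFIB, at 23.1 and 52.3 in SL, at 11.7 and 32.5 in SFGL and at 75.6 and 73.4 in those labelled FGL. *Id3* exceeded *Id1* by 3.75- and 2.85-fold in uFIB, whereas *Id1* exceeded *Id3* by 1.26- to 6.93-fold in SL and SFGL. With limma, *Id1* rose by a log2 difference of 1.31 (95% interval 0.97 to 1.65, adjusted p = 0.000887). For *Id3* limma gave -1.77 (-2.70 to -0.84, adjusted p = 0.00924), and without the uFIB library of day 12 this became -1.27 with an adjusted p of 0.0788.

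*Inhba* was expressed in the fibroblasts, at levels that cannot be set against those of the table of stages. It had 6.44 and 8.40 FPKM in uFIB on days 12 and 21, 8.53 and 11.0 in SL, 6.40 and 9.85 in SFGL, and 10.2 and 14.5 in the libraries labelled FGL. SL and SFGL overlapped uFIB, and limma gave a difference of 0.23 (95% interval -0.00 to 0.46, adjusted p = 0.0768). The libraries labelled FGL were both above both uFIB libraries, by 0.66 in limma (0.40 to 0.93, unadjusted p = 0.00108, adjusted p = 0.931), which did not pass. *Bmp2* was lower in all 4 SL and SFGL libraries (0.271 to 0.457 FPKM) than in uFIB (0.710 and 0.756) but was below the level tested. How many of all genes separate the libraries as *Bmp2* or *Inhba* do here was not counted.

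**Figure D4:**
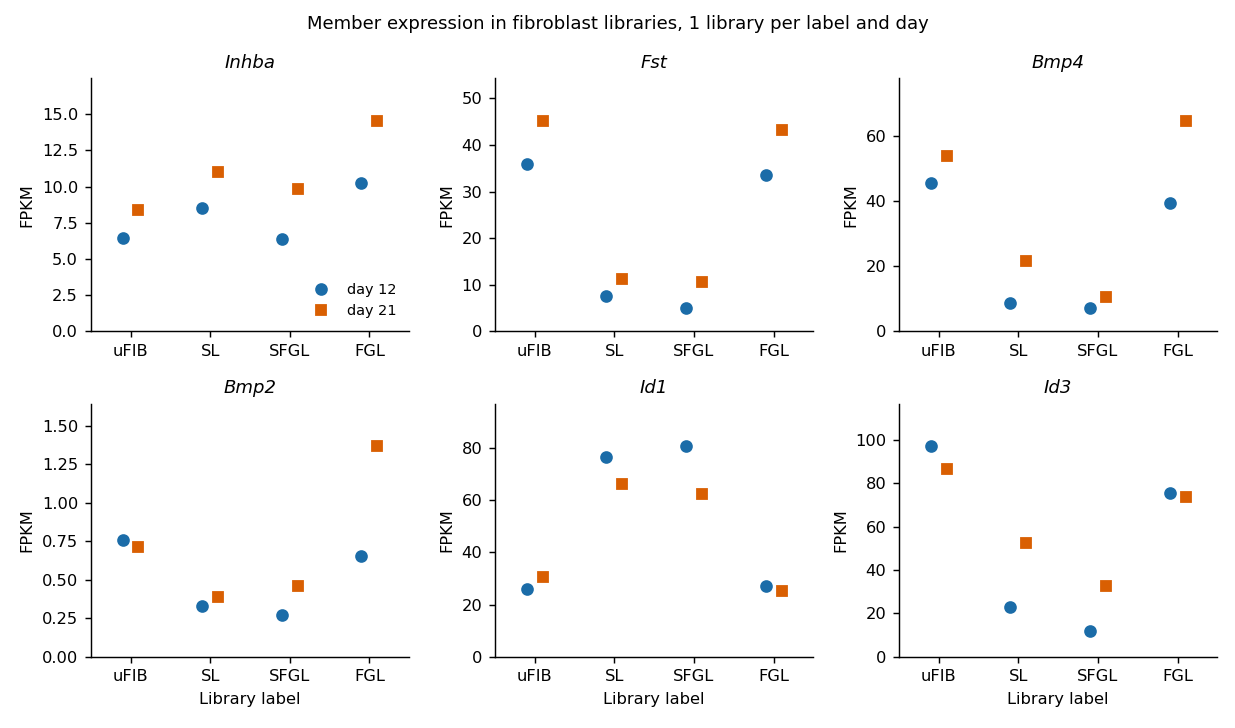
Points are FPKM of single libraries, by label, on day 12 (blue circles) and day 21 (orange squares), with axes that start at 0 and differ between genes. *Fst*, *Bmp4* and *Id3* are lower and *Id1* is higher in SL and SFGL than in uFIB, and the libraries labelled FGL lie near uFIB except for *Inhba* and, on day 21, *Bmp2*.

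In SL and SFGL against uFIB, 1 of the 5 members tested rose and 3 fell, at a background of 29.6% of 11991 genes that rose and 32.2% that fell. Against the 61.8% of all genes that passed in either direction, a count of 4 in 5 is not a result about the members. At a further requirement of at least 2-fold, added after the data were seen, all 4 still passed and the background was 12.9% of genes that rose and 13.8% that fell. As the members' differences were known when this limit was set, their passing it is no test of them. The members' median was -1.77 on the log2 scale and that of all genes -0.03. Without both libraries labelled FGL the same 4 passed, with limma adjusted p-values between 0.000883 and 0.0118.

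Fibroblast and blood markers moved with these differences, and their part was not tested. The summed FPKM of all 5 fibroblast markers was 6371 and 5059 in uFIB, 905 to 2178 in SL and SFGL, and 4913 and 5154 in the libraries labelled FGL. In SL this sum was 34.2% of the uFIB value on day 12 and 21.8% on day 21, and in SFGL 28.2% and 17.9%. *Fst* stood at 14.1% to 25.1% of uFIB in the same 4 libraries, *Bmp4* at 15.9% to 40.4%, *Id3* at 12.0% to 60.4%, and *Id1* at 205% to 312%. The sum of 5 blood progenitor markers was 21.1 and 25.9 in uFIB and 257 to 392 in SL and SFGL, and that of 5 macrophage markers 3.58 and 4.95 against 86.9 to 242. The library labelled FGL on day 12 lay above uFIB in both, at 52.6 and 20.7, and that of day 21 was at 26.1 and 3.69. In such bulk samples fewer fibroblasts and less RNA per fibroblast cannot be told apart.

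No member passed in SFGL against SL or in FGL against uFIB. For SFGL against SL limma called 0 of 11991 genes (0.0%), with 1057 at an unadjusted p under 0.05, and the closest member was *Bmp4* at -0.62 (95% interval -1.20 to -0.05, adjusted p = 0.551). For FGL against uFIB limma called 2 genes (0.0167%), with 466 at an unadjusted p under 0.05. Apart from *Inhba*, the members' differences there ran from -0.30 (*Id3*) to 0.03 (*Bmp4*). The interval for *Id3* ran from -1.37 to 0.78, and so left room for a 2-fold difference.

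Between days, 0 of 5 members passed at a background of 2.63% of genes. *Inhba* was higher on day 21 with each of the 4 labels, by 0.42 in limma (adjusted p = 0.0551), and so were *Fst* by 0.53 (adjusted p = 0.0869) and *Bmp4* by 0.66 (adjusted p = 0.0964). In this limma contrast 3071 of 11991 genes had an unadjusted p under 0.05. How many of all genes go the same way with every label was not counted. *Lefty1* was low but higher on day 21 with each label. It went from 0.195 to 0.928 FPKM in uFIB, from 0.0749 to 0.772 in SL, from 0.0688 to 1.21 in SFGL and from 0.140 to 1.53 with the label FGL. It was below the level tested. With no lower limit on the level, limma called 93 of 16876 genes between the days. It gave *Lefty1* a difference of 0.90 (95% interval 0.65 to 1.15, adjusted p = 0.0475).

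**Figure D5:**
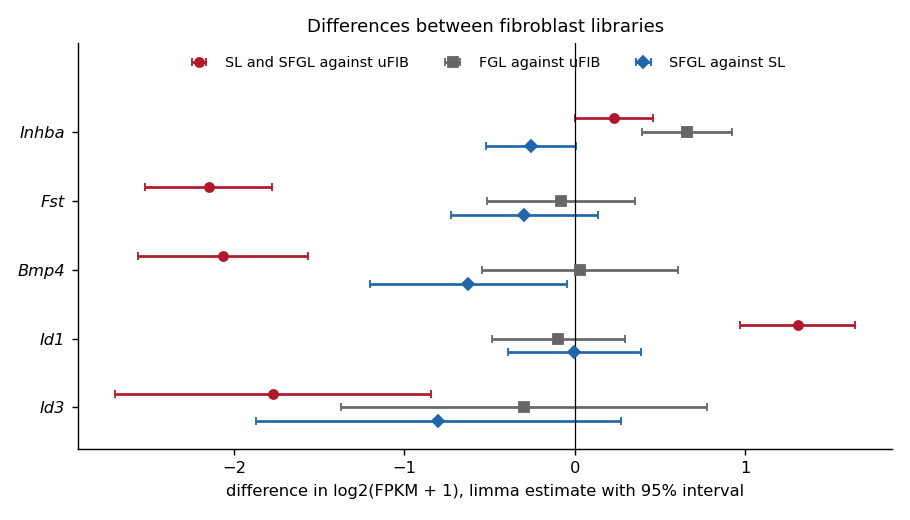
Points are limma differences in log2(FPKM + 1) with 95% intervals (bars) for the 5 members tested and 3 contrasts. For SL and SFGL against uFIB the intervals of *Fst*, *Bmp4* and *Id3* lie below 0 and that of *Id1* above it, while for SFGL against SL and FGL against uFIB no member passed after adjustment.

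Of the 63 other pathway genes, 48 were tested in the fibroblasts, and in SL and SFGL 5 rose and 28 fell against uFIB, with a median log2 difference of -0.72, where 29.6% of all genes rose and 32.2% fell. No receptor gene rose and 6 of 9 fell, no inhibitor rose and 9 of 16 fell, and among the ligands 2 rose and 5 fell of 9. *Acvr1*, a type I receptor for BMPs and activins, decreased from 20.9 and 22.4 FPKM in uFIB to between 4.79 and 7.73 in SL and SFGL (limma -1.75, adjusted p = 0.000353). *Acvr2a*, a type II activin receptor, fell, with a limma difference of -2.31, as did *Fstl1*, which encodes a secreted follistatin-like glycoprotein, with -1.94.

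*Tgfb1* rose from 29.2 and 23.7 FPKM in uFIB to between 162 and 247 in SL and SFGL (limma 2.89, adjusted p = 0.000353), while *Tgfb3* fell from 65.6 and 50.2 to between 8.54 and 11.7 (-2.44). The SMAD genes with the smallest p-values, *Smad5* and *Smad4*, fell, with differences of -0.84 and -0.74, and so did *Ski*, a repressor of SMAD activity, with -1.20. *Bmp1* (-1.70) and *Pcsk6*, a proprotein convertase gene (-1.58), fell as well. Of the targets, *Pmepa1* fell with -2.55 and *Id4* with -2.30, as *Id3* did. *Id2*, which the rule for naming genes did not take and which was added after its values were seen, rose with *Id1*, by a limma difference of 1.35 (adjusted p = 0.000889). *Foxh1*, added in the same way, was at 0.109 and 0 FPKM in uFIB and between 1.01 and 5.91 in SL and SFGL (limma 1.86, adjusted p = 0.0218). In FGL against uFIB and in SFGL against SL, 0 of the 48 passed, and 2 rose and 2 fell between the days.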

How the data were processed

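FPKM values were used as deposited. For the stages, the authors aligned single-end 50-base SOLiD reads with SHRiMP to mm10 (GRCm38), kept unique alignments, removed duplicates with Picard and ran Cufflinks, giving 1 FPKM per TSS with the replicates combined. For the fibroblasts, the deposited FPKM are per gene and library, and the submitters' processing notes name TopHat and Cufflinks. Versions are not given in the sources used here. FPKM hold no read counts, removal of duplicates can limit the highest values, and the tables were normalized separately. TSS values were summed per gene. Fibroblast libraries were compared with limma 3.58.1 in R 4.3.3 (log2(FPKM + 1), mean of at least 1 FPKM, treatment and day as terms, 3 residual degrees of freedom, trend, Benjamini-Hochberg at 0.05), tested on simulated data. Days stand in for replicates, so that p-values measure how alike the effects were on both days. The labels do not name separate cultures. All 10 members are named. Of the other pathway genes, named are, per role, up to 3 with the widest range over the stages and at least 5 FPKM in 1 stage, and up to 2 with the smallest limma p. Members and lists were chosen with earlier results of these data known. In the table of stages, 1 further column, HE, could be matched to no sample here and was not analysed here. Scaling, pseudocount, filter, fold limit and left-out libraries were the alternatives.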

Additional observations from a re-analysis of the deposited data

How the results depend on the processing

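The stages hold 1 value each, so their counts rest on a fold limit alone and low FPKM carry an unknown counting error. At a limit of 4-fold, 1 member in place of 4 changed from ESC to MES and 4 in place of 7 from MES to HB, and all genes changed numbered 188 in place of 1510, 88 in place of 595, 520 in place of 1855 and 2129 in place of 5113 over the 4 transitions. With a pseudocount of 0.001 they numbered 2467, 1057, 2630 and 5942, and the members' counts did not move. From MES to HB, 361 genes changed where 5 FPKM was required, as did 1162 from HB to HP. In the fibroblasts, 1 member in place of 0 rose between the days after upper quartile scaling and with a mean of at least 5 FPKM, *Inhba* both times (limma adjusted p = 0.0497 and 0.0479), and 1, *Lefty1*, with no filter on low values. All genes called between the days numbered 315, but 93 with no filter, 20 without the treatment term and 9 without the libraries labelled FGL, and FGL against uFIB gave 1 gene in place of 2 with no filter and with no day term. Leaving out each library in turn gave 3 to 4 members for SL and SFGL against uFIB and 0 to 0 in the other contrasts. Then 6 to 154 genes were called between the days and 0 to 22 for FGL against uFIB. No paired analysis was possible because the columns of the stages, the only samples whose labels number replicates, combine them. The fibroblast fit compared treatments within a day through its day term, and without that term 4 members and 6400 genes in place of 7410 passed for SL and SFGL against uFIB.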
